A study of Mus musculus with 6 samples.

Results

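RNA-Seq counts from whole liver were examined for 10 genes of MHC class II antigen presentation, taken by gene symbol from the 54532 genes of the deposited table. They were *Cd74*, *H2-Aa*, *H2-Ab1*, *H2-Eb1*, *H2-DMa*, *H2-DMb1*, *H2-DMb2*, *Ciita*, *Cd86* and *Flt3*, and all 10 were among the 15449 genes with enough counts to be tested. The libraries came from 3 g*Spns1*-cKO mice and 3 control mice, 1 library per mouse, all on a C57BL/6 background. The g*Spns1*-cKO mice, labelled SPNS1 KO, carried loxP sites around exon 3 of *Spns1* and a Cre-ERT2 recombinase at the Rosa26 locus, and were injected with tamoxifen about 2 weeks after birth so that exon 3 was deleted in the whole body and not in hepatocytes alone. The labels call the controls wild type, whereas the methods use floxed *Spns1* littermates, and whether these also received tamoxifen is not stated, nor is the age at which the livers for RNA-Seq were taken.

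MHC class II molecules are pairs of an alpha and a beta chain that hold peptides from endocytosed proteins at the cell surface for CD4+ T cells to read. In the endoplasmic reticulum the pair is blocked by the invariant chain CD74, which lysosomal proteases later trim away, and the DM heterodimer then exchanges the remaining fragment for a peptide. In the liver the route is used mainly by dendritic cells, B cells and macrophages, and CIITA switches its genes on.

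The libraries held 30350002 to 35295611 counts, so that a floor of 3 counts corresponded to 0.0763 to 0.119 CPM (counts over the library size, which is scaled by the TMM method of edgeR). The TMM factors, which correct the library size for a few very abundant transcripts, were 0.834 to 0.873 in control and 1.16 to 1.18 in g*Spns1*-cKO libraries. *Spns1* was at 35.9, 50.7 and 34.6 CPM in the control livers and at 17.8, 30.6 and 17.8 CPM in the g*Spns1*-cKO livers. The groups did not overlap, and *Spns1* was lower in g*Spns1*-cKO liver by the edgeR quasi-likelihood test (log2 fold change -0.87, SE 0.25, adjusted p = 0.030), although the counts cover the whole gene and not exon 3 alone. That call was lost in 5 of 15 alternatives, with library size or upper-quartile scaling and without control replicate 2 or g*Spns1*-cKO replicates 1 or 3, where the log2 fold change lay between -1.18 and -0.43 over all 15. In whole liver, more cells of a type and more RNA per cell cannot be told apart, and this holds for every level below.

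Of the class II genes, 9 of 10 were higher in g*Spns1*-cKO liver and 0 were lower (edgeR, adjusted p under 0.05). Over all genes tested, 21.3% were higher and 20.5% were lower, 41.8% in all. The CPM of the groups did not overlap for the same 9 genes, whereas 27.1% of all genes tested were higher without overlap. The exception was *H2-DMb2*. The median log2 fold change of the 10 genes was 1.37, beside 0.014 over all genes tested. With upper-quartile scaling 4111 genes were higher and 2240 lower (64.7% of calls higher), and with library size alone 7289 and 970 (88.3%), against 3286 and 3166 (50.9%) with TMM. These scalings moved the median of all genes to 0.14 and 0.46, and the class II genes lay 1.35 above it with either of them.

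**Figure D1:**
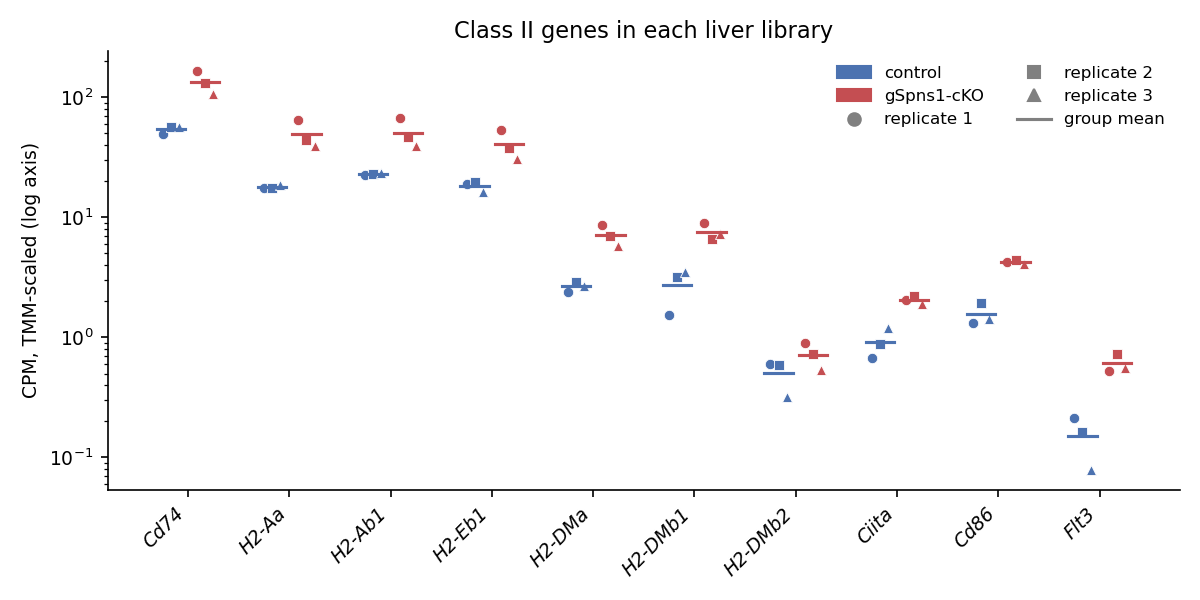
Levels of the 10 class II genes in each liver library, as TMM-scaled CPM on a log axis, with control in blue, g*Spns1*-cKO in red, replicates 1, 2 and 3 as circles, squares and triangles, and group means as lines. The g*Spns1*-cKO points lie above all control points for 9 genes and overlap with them for *H2-DMb2*.

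The invariant chain gene *Cd74* (chr18:60803848-60812646, plus strand, GRCm38 as deposited) was the most abundant of the 10. It was at 49.7, 55.9 and 56.4 CPM in control livers and at 166, 131 and 107 CPM in g*Spns1*-cKO livers. The lowest g*Spns1*-cKO liver was far above the highest control, while the spread was wider in g*Spns1*-cKO mice (54.0 ± 3.74 against 134 ± 29.6 CPM, SD, n = 3). The difference was 2.49-fold (95% interval 1.96 to 3.16, edgeR adjusted p = 0.00016).

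The classical chains lie close together on chromosome 17. *H2-Aa* (chr17:34282744-34287827, minus strand), which encodes the alpha chain of I-A, was at 17.6, 17.6 and 18.5 CPM in control and at 64.4, 44.1 and 38.7 CPM in g*Spns1*-cKO livers. Its partner *H2-Ab1* (chr17:34263209-34269418, plus strand), the I-A beta chain, was at 22.4, 23.0 and 23.3 CPM in control and at 66.2, 46.4 and 39.3 CPM in g*Spns1*-cKO livers. *H2-Eb1* (chr17:34305877-34316199, plus strand), the beta chain of I-E, was at 19.0, 19.7 and 16.2 CPM in control and at 53.5, 37.9 and 30.4 CPM in g*Spns1*-cKO livers. In all 3 genes replicate 1 was the highest and replicate 3 the lowest of the g*Spns1*-cKO livers, and no g*Spns1*-cKO liver reached down to a control. The differences were 2.74-fold for *H2-Aa* (95% interval 2.09 to 3.60), 2.21-fold for *H2-Ab1* (1.69 to 2.90) and 2.21-fold for *H2-Eb1* (1.63 to 3.01), with edgeR adjusted p of 0.00024, 0.00083 and 0.0018. The I-E alpha chain, which C57BL/6 mice lack because its gene is defective, is listed as the pseudogene *H2-Ea-ps*, and it had 0 counts in all 6 libraries.

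*Cd74* and these 3 chains together held 91.5 to 94.2% of the summed CPM of the 10 genes in each library. The summed level of all 10 was 115 to 126 CPM in control livers and 235 to 375 CPM in g*Spns1*-cKO livers. The coefficient of variation between control mice was 6.93% for *Cd74*, 3.11% for *H2-Aa*, 2.00% for *H2-Ab1* and 10.2% for *H2-Eb1*, and between g*Spns1*-cKO mice 22.0%, 27.6%, 27.6% and 28.9%.

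The promoters of class II genes share a module in which an X box, bound by the RFX complex and CREB, stands upstream of a Y box, bound by NF-Y, and CIITA binds to the proteins on it rather than to DNA. RefSeq windows (GRCm38.p6) from 250 bases before to 50 bases after the start were found for 6 of the 10 genes, but not for *Cd74*, *H2-Ab1*, *Ciita* and *Cd86*. Each start named with these windows is that of RefSeq, which can differ from the deposited gene position. They were searched on both strands for TGATTGG, a Y box core, for AACNGATGA, an X box core, and for TGACGTCA, the element that CREB binds, all chosen after these windows had been read. TGATTGG was found in 7.82%, AACNGATGA in 0.648% and TGACGTCA in 1.79% of 32851 windows of all genes, and 0.0609% held both TGATTGG and AACNGATGA. The stretches below are shown because they hold these letters, in capitals, before the start of a classical chain and of the DM gene that did not pass the test. None of their bases lies in an annotated exon, and the motifs do not overlap each other in them.
*H2-Aa*, chr17:34287847-34287917, minus strand: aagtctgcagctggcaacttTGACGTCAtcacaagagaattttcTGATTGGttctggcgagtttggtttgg
*H2-Eb1*, chr17:34305758-34305832, plus strand: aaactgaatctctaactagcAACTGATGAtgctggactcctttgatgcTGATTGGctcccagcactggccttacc
*H2-DMb2*, chr17:34145108-34145183, plus strand: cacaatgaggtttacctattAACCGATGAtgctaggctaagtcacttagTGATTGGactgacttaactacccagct

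The Y box core began 50 bases before the start in *H2-Aa*, 61 in *H2-Eb1* and 92 in *H2-DMb2*. Upstream of it, *H2-Eb1* and *H2-DMb2* had the X box core, with 19 and 20 bases between, and *H2-Aa* had TGACGTCA instead, with 16 bases between. *H2-DMb1* had both cores as well, with its Y box core 63 bases before the RefSeq start. Over the same 76 bases it matched *H2-DMb2* at 66 positions (86.8%). This *H2-DMb1* stretch lies after the deposited start of the gene (34153072), and all 76 of its bases are in annotated exons. The printed *H2-DMb2* stretch also lies inside its gene as deposited (start 34143307). The searched letters were not in the windows of *Flt3* and *H2-DMa*. The *H2-DMa* windows (chr17:34122582-34122881 and chr17:34125268-34125567) end before the deposited start of that gene (34135182). The sequence next to the deposited start of *H2-DMa* was therefore not searched. The matches are descriptions of sequence and were not measured as bound sites.

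The DM heterodimer, which edits the peptide cargo, consists of an alpha chain from *H2-DMa* and a beta chain from *H2-DMb1* or *H2-DMb2*. *H2-DMa* (chr17:34135182-34139101, plus strand) was at 2.38, 2.89 and 2.69 CPM in control and at 8.56, 7.01 and 5.77 CPM in g*Spns1*-cKO livers. *H2-DMb1* (chr17:34153072-34160230, plus strand) was at 1.53, 3.18 and 3.52 CPM in control and at 8.92, 6.57 and 7.20 CPM in g*Spns1*-cKO livers. Both were higher without overlap, 2.68-fold (95% interval 1.95 to 3.68, edgeR adjusted p = 0.00051) and 2.76-fold (1.78 to 4.28, adjusted p = 0.0028). The neighbouring *H2-DMb2* (chr17:34143307-34151553, plus strand) was at 0.605, 0.585 and 0.316 CPM in control and at 0.890, 0.730 and 0.534 CPM in g*Spns1*-cKO livers. Its groups overlapped, its counts were only 8 to 18 in control and 21 to 32 in g*Spns1*-cKO libraries, and the log2 fold change of 0.50 did not pass the edgeR test (95% interval -0.43 to 1.43, adjusted p = 0.37).

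The ratio of *H2-DMb1* to *H2-DMb2* per length was 2.91, 6.27 and 12.8 in control and 11.6, 10.4 and 15.5 in g*Spns1*-cKO libraries. These ranges overlapped and the difference was not larger than the spread (log2 difference 1.00, two-sided exact permutation p = 0.3, adjusted over 4 ratios p = 0.3). Without control replicate 1 the log2 difference was 0.46 and without control replicate 3 it was 1.52. The annotated transcripts of both genes share 179 identical 100-base words, of 1579 in *H2-DMb1* and 1741 in *H2-DMb2*, so reads from this stretch could not be placed with certainty. No such word is shared by *H2-Aa* and *H2-Ab1*, by *H2-Ab1* and *H2-Eb1* or by *H2-Eb1* and *H2-Eb2*.

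*Ciita* (chr16:10480059-10528418, plus strand), the coactivator without which class II genes stay silent, was at 0.676, 0.877 and 1.19 CPM in control and at 2.03, 2.19 and 1.91 CPM in g*Spns1*-cKO livers. All 3 g*Spns1*-cKO livers lay above the controls, 2.24-fold (95% interval 1.41 to 3.56, edgeR adjusted p = 0.011), and here the g*Spns1*-cKO livers were the less variable group. *Dexi* overlaps 329 of its 9535 exonic bases (3.45%) on the opposite strand, and was itself lower (log2 fold change -0.90, edgeR adjusted p = 0.0021). Whether the counting used strand is not stated.

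*Cd86* (chr16:36603869-36666081, minus strand), the ligand that gives T cells the second signal through CD28, was at 1.32, 1.95 and 1.42 CPM in control and at 4.23, 4.43 and 4.07 CPM in g*Spns1*-cKO livers. The groups were far apart and the difference was 2.70-fold (95% interval 1.89 to 3.87, edgeR adjusted p = 0.00095). *Flt3* (chr5:147330741-147400489, minus strand), the receptor tyrosine kinase that dendritic cell precursors need to develop, was at 0.213, 0.162 and 0.079 CPM in control and at 0.528, 0.730 and 0.560 CPM in g*Spns1*-cKO livers. It was the scarcest of the 10, with 6, 5 and 2 counts in control and 19, 28 and 22 in g*Spns1*-cKO libraries. The groups did not overlap, and its difference of 3.88-fold had the widest interval of the 9 genes called (1.77 to 8.48, edgeR adjusted p = 0.011).

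**Figure D2:**
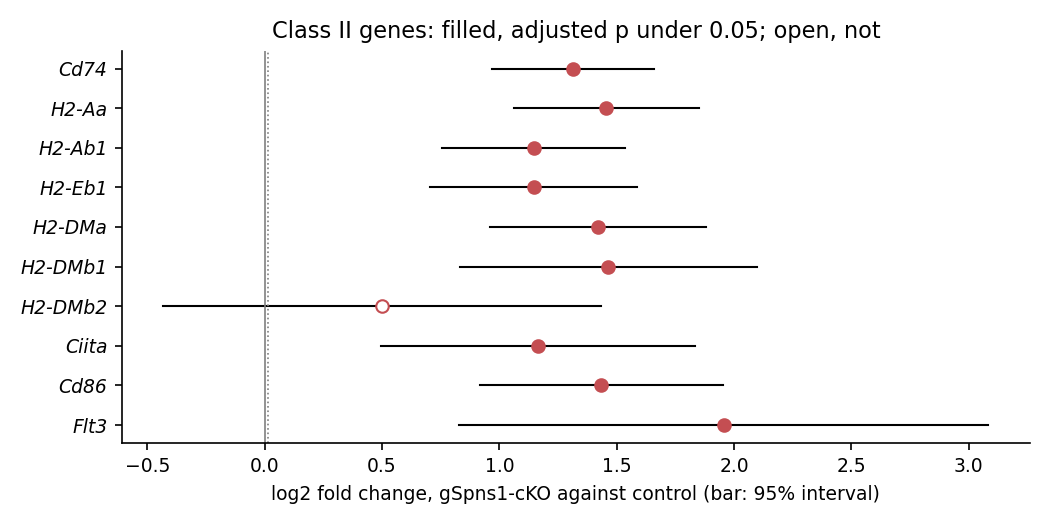
The log2 fold change of each class II gene in g*Spns1*-cKO against control liver from edgeR (n = 3 mice per group), with 95% intervals as bars, filled points for adjusted p under 0.05 and the median of all genes tested as a dotted line. Only the interval of *H2-DMb2* includes 0, and the point estimates of the others lie between 1.15 and 1.96.

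Scaled by gene length, the genes stood in the same order in both groups. In control livers *Cd74* was at 38.3 CPM per kilobase, *H2-Eb1* at 15.5, *H2-Ab1* at 14.0, *H2-Aa* at 9.55, and the DM chains *H2-DMb1* at 1.85 and *H2-DMa* at 1.62 CPM per kilobase. The scarcer genes were *Cd86* at 0.427, *H2-DMb2* at 0.293, *Ciita* at 0.0957 and *Flt3* at 0.0245 CPM per kilobase. In g*Spns1*-cKO livers *Cd74* was at 95.2 ± 21.0, *H2-Eb1* at 34.3 ± 9.93, *H2-Ab1* at 30.9 ± 8.53 and *H2-Aa* at 26.2 ± 7.22 CPM per kilobase (SD, n = 3). *H2-Eb1* and *H2-Ab1* could not be ordered beyond their spread, with *H2-Ab1* below *H2-Eb1* in 5 of 6 libraries, nor could *H2-DMb1* and *H2-DMa*.

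The chains of the I-A pair kept a tight ratio within each group. *H2-Aa* to *H2-Ab1* per length was 0.686, 0.668 and 0.696 in control and 0.849, 0.831 and 0.861 in g*Spns1*-cKO libraries. The ratio was higher in all 3 g*Spns1*-cKO libraries, by 0.31 on the log2 scale. The two-sided exact permutation p of 0.1 is the smallest that 3 mice against 3 can give (adjusted over 4 ratios p = 0.133), and leaving out any single library gave 0.29 to 0.32. *Cd74* to *H2-Aa* per length was 4.01 ± 0.238 in control and 3.67 ± 0.259 in g*Spns1*-cKO libraries (SD, n = 3) and overlapped.

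The other genes of the route were taken from 5 lists with 57 genes, of which 46 could be tested. Of these, 24 were higher, 2 were lower and 20 did not pass the test, with a median log2 fold change of 0.54, beside 21.3% higher and 20.5% lower over all genes tested. Among the genes that process the invariant chain and load peptides, 7 of 10 tested were higher and 1 was lower. Cathepsin S (*Ctss*), the protease that trims the invariant chain in dendritic cells and B cells, was at 19.3, 24.3 and 30.6 CPM in control and at 119, 109 and 100 CPM in g*Spns1*-cKO livers (log2 fold change 2.15, SE 0.16, edgeR adjusted p = 1.5e-05). The asparagine endopeptidase gene *Lgmn* rose by 1.29 on the log2 scale (SE 0.13, adjusted p = 7.4e-05). The ubiquitin ligases that take class II off the cell surface went in opposite directions. *March1*, the ligase of professional antigen-presenting cells, rose by 2.17 (SE 0.36, edgeR adjusted p = 0.0011), and the more widely expressed *March8* had a log2 fold change of -0.84 (SE 0.13, adjusted p = 0.00080).

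The DO chains, which restrain DM, were scarce. *H2-Ob* was at 0.818, 0.682 and 0.869 CPM in control and at 0.751, 0.287 and 0.127 CPM in g*Spns1*-cKO livers, which overlapped (edgeR log2 fold change -1.03, adjusted p = 0.17), and without g*Spns1*-cKO replicate 1 it passed the test with a log2 fold change of -1.92. *H2-Oa*, with 1 to 10 counts, and *H2-Eb2*, with 0 to 6, had too few counts to be tested.

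Of 12 transcription factors of the class II promoter and of CIITA, 4 were higher and 1 was lower, so that 5 of 12 were called, a share close to the 41.8% of all genes tested. *Spi1*, which encodes PU.1, was at 3.06, 5.42 and 4.23 CPM in control and at 15.0, 13.5 and 13.0 CPM in g*Spns1*-cKO livers (log2 fold change 1.70, edgeR adjusted p = 0.00014). *Irf8*, a factor of dendritic cells and macrophages, rose by 0.93 (adjusted p = 0.00070) and *Nfya*, a subunit of NF-Y, by 0.67 (adjusted p = 0.0083). *Prdm1*, which encodes BLIMP-1, a repressor of *Ciita* in plasma cells, rose by 2.16 from at most 12 counts in any control (adjusted p = 0.0050). The RFX subunits did not rise together by the edgeR test. *Rfx5* had a log2 fold change of 0.56 (adjusted p = 0.11) and passed in 3 of 15 alternatives, without control replicate 1 among them, *Rfxank* had 0.16 (adjusted p = 0.55), and *Rfxap* was lower, with -0.53 (adjusted p = 0.0082), a call lost with library size alone, where its log2 fold change was -0.09. *Nlrc5*, the counterpart of CIITA for class I genes, had 0.17 (adjusted p = 0.40).

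Interferon gamma is the best known inducer of *Ciita* outside professional antigen-presenting cells. Its gene *Ifng* had 3, 0 and 0 counts in control and 2, 1 and 4 counts in g*Spns1*-cKO libraries and was not tested. Of 9 tested genes of its route, 5 were higher and 0 were lower, beside 21.3% higher and 20.5% lower over all genes tested. *Gbp2*, a guanylate-binding protein induced by interferons, was at 3.24, 3.44 and 3.91 CPM in control and at 13.2, 11.0 and 12.3 CPM in g*Spns1*-cKO livers (log2 fold change 1.78, edgeR adjusted p = 3.2e-05). The receptor chain gene *Ifngr1* rose by 1.09 (adjusted p = 6.8e-05). *Jak1* rose by 0.38 (adjusted p = 0.018) and the chemokine gene *Cxcl9* by 0.61 (adjusted p = 0.043), but *Jak1* did not pass the test without control replicate 1 or g*Spns1*-cKO replicate 3, and *Cxcl9* without control replicates 1 or 2 or g*Spns1*-cKO replicates 1 or 3 (adjusted p up to 0.081 and 0.146).

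Among genes of costimulation and their T cell counterparts, 4 of 7 tested were higher and 0 were lower. The shares over all genes tested were 21.3% higher and 20.5% lower. *Cd83*, which keeps class II and CD86 on the surface of dendritic cells, was at 1.92, 1.62 and 0.790 CPM in control and at 6.95, 4.64 and 4.12 CPM in g*Spns1*-cKO livers (log2 fold change 1.84, edgeR adjusted p = 0.0017). *Cd274*, which encodes the inhibitory ligand PD-L1, rose by 1.56 (adjusted p = 0.00090), *Icosl* by 1.39 (adjusted p = 0.023) and *Cd40* by 1.22 (adjusted p = 0.048). The call was lost in 9 of 14 alternatives for *Cd40* and, without control replicates 1 or 3 or g*Spns1*-cKO replicates 1 or 2, for *Icosl* (adjusted p up to 0.155 and 0.077). *Cd80*, the relative of *Cd86*, had a log2 fold change of 0.22 (adjusted p = 0.65), and *Cd28*, the receptor of both ligands, -0.02 (adjusted p = 0.98).

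The growth factor list holds the ligand of FLT3 and the Kit and Csf receptors with their ligands. Of 8 tested, 4 were higher and 0 were lower, beside 21.3% higher and 20.5% lower over all genes tested. All 4 belong to the Csf axes of macrophages and granulocytes. They were *Csf2ra* (log2 fold change 1.81), *Csf1r* (1.63), *Csf2rb* (1.27) and *Csf1* (1.06), with edgeR adjusted p of 0.00049 or less. The FLT3 ligand gene *Flt3l* was at 4.45, 5.91 and 3.16 CPM in control and at 4.50, 4.01 and 3.74 CPM in g*Spns1*-cKO livers, which overlapped (log2 fold change -0.15, adjusted p = 0.66).

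**Figure D3:**
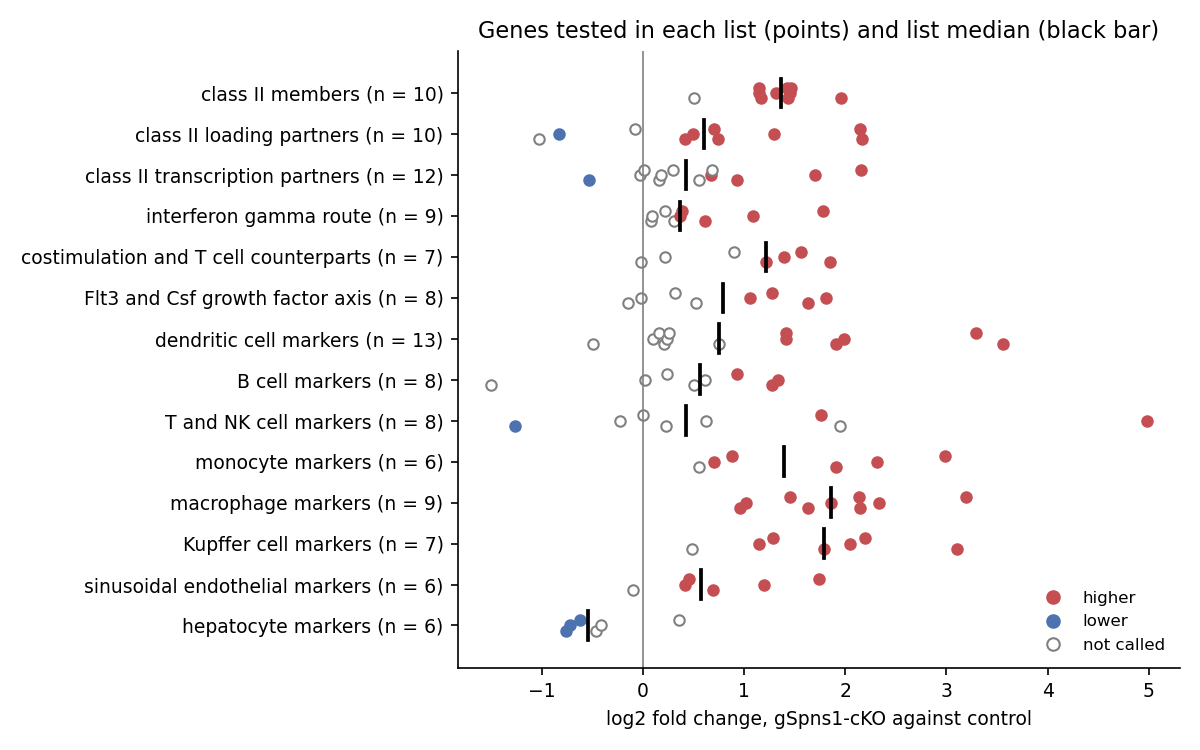
The log2 fold change of every gene tested in each list shown, g*Spns1*-cKO against control liver (n = 3 mice per group), with genes called higher in red, called lower in blue and not called as open points, and the median of each list as a black bar. The cholangiocyte markers (median 2.29), the stellate cell markers (1.22) and *Ptprc* are not shown. The class II genes have a median of 1.37, below those of the macrophage (1.86) and Kupffer cell (1.79) markers and above those of the dendritic cell (0.75) and B cell (0.56) markers.

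Some markers of the cells that carry class II moved with these genes. Of the dendritic cell markers, 6 of 13 tested were higher and 0 were lower. Over all genes tested 21.3% were higher, and 41.8% were called in either direction. The summed level of the dendritic cell markers was 153 to 170 CPM in control and 222 to 281 CPM in g*Spns1*-cKO livers. Much of that sum came from *Dpp4* (means of 107 and 123 CPM) and *Cadm1* (29.4 and 32.7 CPM), which were not called, and much of its increase from *Sirpa* (14.7 and 58.0 CPM). *Itgax*, which encodes CD11c, was at 0.462, 0.909 and 0.672 CPM in control and at 6.81, 5.81 and 7.63 CPM in g*Spns1*-cKO livers (log2 fold change 3.29, edgeR adjusted p = 2.1e-05), and *Batf3* (1.91) and *Sirpa* (1.98) were higher as well. *Ly6d* had the highest value (3.56) but lost its call in 7 of 15 alternatives. The other called markers were *Clec9a* (log2 fold change 1.42, edgeR adjusted p = 0.0014) and *Wdfy4* (1.41, adjusted p = 0.00022). Both lost their call in 0 of 15 alternatives. *Zbtb46*, a transcription factor of conventional dendritic cells, was at 6.58, 4.90 and 3.75 CPM in control and at 5.20, 5.60 and 5.47 CPM in g*Spns1*-cKO livers and overlapped (log2 fold change 0.09, adjusted p = 0.76). The 7 markers not called also included *Xcr1* (log2 fold change -0.50), *Ccr7* (0.25) and *Itgae* (0.23).

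Of the macrophage markers, 9 of 9 were higher, beside 21.3% of all genes tested. Their summed level was 83.0 to 119 CPM in control and 381 to 509 CPM in g*Spns1*-cKO livers. Of the Kupffer cell markers, 6 of 7 were higher (134 to 232 and 451 to 698 CPM), but not *Cd163* (log2 fold change 0.48, edgeR adjusted p = 0.17). Of the monocyte markers, 5 of 6 were higher (6.54 to 9.87 and 17.1 to 20.9 CPM), but not *Ly6c2* (0.56, adjusted p = 0.31). *Spn* lost its call in 9 of 15 alternatives and *Plac8* without g*Spns1*-cKO replicate 3 (adjusted p up to 0.163 and 0.056). Of the B cell markers, 3 of 8 were higher (73.8 to 92.4 and 99.8 to 163 CPM), beside 21.3% of all genes tested. They were *Cd22* (log2 fold change 1.33, edgeR adjusted p = 0.0083), the kappa light chain gene *Igkc* (0.93, adjusted p = 0.0084) and *Blk* (1.28, adjusted p = 0.049), and *Blk* lost its call in 10 of 14 alternatives, among them every fit without 1 mouse. *Igkc* held most of the sum, with means of 58.8 and 112 CPM, while the mu heavy chain gene *Ighm* had means of 21.3 and 7.50 CPM and was not called (log2 fold change -1.50, adjusted p = 0.19), nor was *Ms4a1*, which encodes CD20 (0.50, adjusted p = 0.58). The T and NK cell markers had a summed level of 4.58 to 5.72 CPM in control and 6.28 to 7.38 CPM in g*Spns1*-cKO livers. Of these, 2 of 8 were higher and 1, *Cd4*, was lower, close to the shares over all genes. The higher genes were *Ncr1* (log2 fold change 4.98, edgeR adjusted p = 0.0012) and *Nkg7* (1.76, adjusted p = 0.014). Each lost its call in 0 of 14 alternatives, although *Ncr1* had only 1, 0 and 0 counts in control libraries. *Cd4* had means of 1.94 CPM in control and 0.806 CPM in g*Spns1*-cKO livers. Its call was lost with library size alone, without control replicate 2 and without g*Spns1*-cKO replicate 2 (adjusted p up to 0.090). No marker of these lists was at 0 in every library, and the part of these cells in the class II result was not tested. Sinusoidal endothelial (5 of 6), cholangiocyte (5 of 5) and stellate cell markers (5 of 5) were higher too, beside 21.3% of all genes tested. Among them *Kdr* and *Lrat* each lost their call in 3 of 15 alternatives, and *Lyve1* without control replicate 1. Of the hepatocyte markers 3 of 6 were lower, beside 20.5% of all genes tested, though none of these 3 with library size alone.

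The level of *Ptprc*, which encodes the pan-leukocyte antigen CD45, was 4.27, 4.03 and 6.36 CPM in control and 18.3, 16.1 and 16.0 CPM in g*Spns1*-cKO livers (log2 fold change 1.79, edgeR adjusted p = 6.7e-05). Within a library the ratio of *H2-Ab1* to *Ptprc* was 5.24, 5.70 and 3.66 in control and 3.62, 2.89 and 2.46 in g*Spns1*-cKO livers. The ratio was lower in g*Spns1*-cKO liver (log2 difference -0.70, two-sided exact permutation p = 0.1, adjusted over 4 ratios p = 0.133), with control replicate 3 only just above g*Spns1*-cKO replicate 1. Against *Adgre1*, which encodes the macrophage antigen F4/80, the ratio was 4.99, 4.34 and 4.24 in control and 2.11, 2.78 and 2.05 in g*Spns1*-cKO livers (log2 difference -0.98, exact p = 0.1, adjusted p = 0.133), and the groups were well apart. Over all other genes tested, 82.1% had a ratio to *Ptprc* and 85.0% a ratio to *Adgre1* that was lower without overlap, so a lower ratio is not particular to *H2-Ab1*. No p of such a ratio can fall below 0.1 with 3 mice per group.

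Of all 10 genes, 3 had a ratio to *Ptprc* that was lower without overlap (*H2-Ab1*, *H2-DMb2* and *Ciita*), and 7 had such a ratio to *Adgre1* (all but *H2-DMb1*, *Cd86* and *Flt3*), beside the 82.1% and 85.0% of all genes. A ratio that was higher without overlap was found for 0 of the 10, and over all genes for only 1.66% (*Ptprc*) and 0.88% (*Adgre1*). The ratio of *H2-Ab1* to *Itgax* was 36.1 ± 11.6 (SD, n = 3) in control livers and 7.62 ± 2.31 with *Spns1* deleted. By contrast, *H2-Ab1* to *Clec4f*, a lectin gene of Kupffer cells, was 0.365, 0.301 and 0.258 in control and 0.298, 0.326 and 0.283 in g*Spns1*-cKO livers, and *H2-Ab1* to *Stab2*, a scavenger receptor gene of sinusoidal endothelium, was 0.733 ± 0.00977 and 0.705 ± 0.135, and both overlapped. The ratios to *Itgax*, *Clec4f*, *Stab2*, *Cd68* and *Csf1r* are given as descriptions, without a test.

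**Figure D4:**
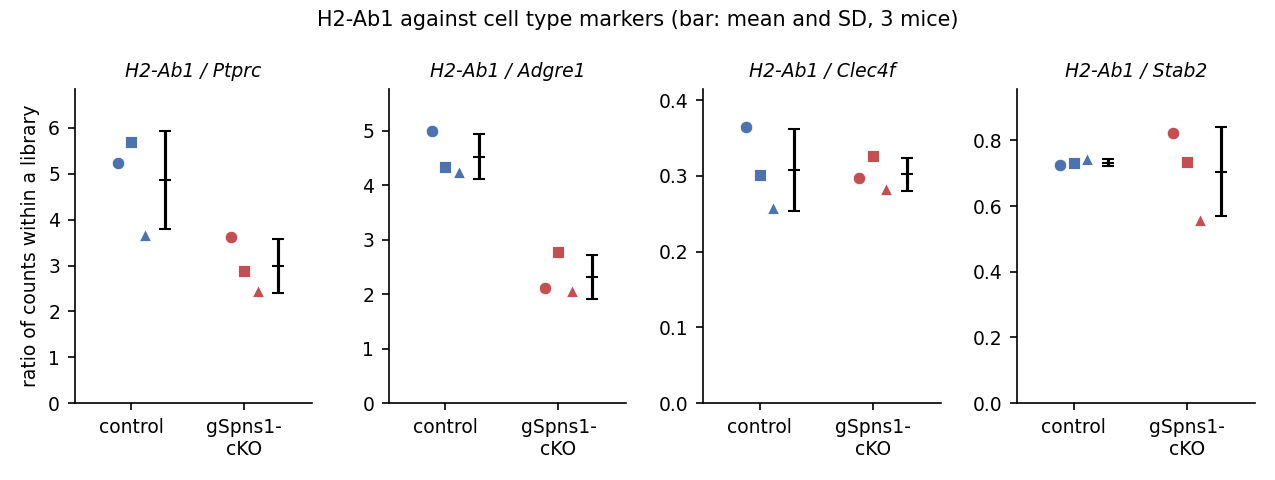
The ratio of *H2-Ab1* counts to those of a cell type marker within each library, with control in blue, g*Spns1*-cKO in red, replicates 1, 2 and 3 as circles, squares and triangles, and black bars for the mean and SD (n = 3 mice). The g*Spns1*-cKO ratios lie below all control ratios for *Ptprc* and *Adgre1* and overlap with them for *Clec4f* and *Stab2*.

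The pattern of the 4 abundant class II genes over the 6 libraries, taken as the mean log2 CPM of *Cd74*, *H2-Aa*, *H2-Ab1* and *H2-Eb1*, was compared with that of every gene outside the lists. The 5 genes with the highest Pearson r were *Slc28a2*, a nucleoside transporter gene (0.997), *Btg2*, an antiproliferative gene (0.997), *Slc43a2*, an amino acid transporter gene (0.994), *Actg1*, which encodes cytoplasmic gamma-actin (0.994), and *Themis2*, a signalling gene of B cells and macrophages (0.992). The 6 points share libraries and the difference between groups, so these values describe likeness only. In each of these genes, as in *Cd74* and the 3 chains, g*Spns1*-cKO replicate 1 had the highest count of all libraries, with 919 for *Btg2* and 6024 for *Actg1*.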

How the data were processed

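Poly(A) RNA from the livers of 3 control and 3 g*Spns1*-cKO mice was sequenced by a commercial service. The submitters' processing notes name fastp, HISAT2 2.0.5, featureCounts 1.5.0-p3 and mm10. The authors deposited whole-number counts per gene and library, not normalized, and a gene length per row, in the same table as FPKM values and their own fold changes and p-values, which were not used here. Gene positions are those deposited, and 4 of the 10 genes have the same start and end in GENCODE M21 (GRCm38). Grouping followed the sample titles. The p-values measure the spread between these mice.

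The groups were compared with edgeR 4.0.16 in R 4.3.3 (filterByExpr, TMM, robust quasi-likelihood test, Benjamini-Hochberg adjustment over 15449 genes, threshold 0.05). The SE is the log2 fold change over the square root of F, and CPM use TMM-scaled library sizes. Ratios were compared by exact permutation, two-sided. The floor of 3 counts covers counting error only, since reads carry no molecular identifiers, whereas the 95% intervals come from the fit. The members and gene lists were chosen with earlier results of these data known. The text names all 10 genes, 12 further genes of the route whatever their values, and the 5 genes most like the abundant members. It also names up to 4 called genes by size of change in each partner list and in the dendritic and B cell lists. Of the other marker lists it names only some genes, without a rule on the size of change. *Clec4f*, *Stab2*, *Dexi*, *Cd80*, *Cd28*, *Ms4a1*, *Ighm*, *Dpp4*, *Cadm1*, *Plac8*, *Ctsb*, *Ctsd* and *Irf1* were named after their values were seen. So were *Cd4*, *Ncr1*, *Nkg7*, *Spn*, *Cd68*, *Cd163*, *Ly6c2*, *Lyve1*, *Kdr*, *Lrat*, *Xcr1*, *Ccr7*, *Itgae*, *Clec9a* and *Wdfy4*. Alternatives were DESeq2 1.42.0, limma-voom 3.58.1, other scalings and filters, a threshold of 0.01, a replicate block, the DMb genes summed, and leaving out each mouse. The scripts were tested on simulated data.

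Same-numbered mice did not deviate together from their group means (r = 0.037, 0.033 and -0.028), so the numbers were not taken as pairs.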

Additional observations from a re-analysis of the deposited data

How the results depend on the processing

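The count of class II genes higher in g*Spns1*-cKO liver was 7 to 9 over 16 alternatives, with 0 lower in each. At a threshold of 0.01, *Ciita* (adjusted p = 0.011) and *Flt3* (adjusted p = 0.011) were not called. With at least 10 counts in every library, *Flt3* and *H2-DMb2* were left out. With library size alone the median log2 fold change of the class II genes was 1.81 and 1 route partner was lower rather than 2, and without g*Spns1*-cKO replicate 1 there were 3. Route partners higher numbered 17 to 36. With the replicate block 9 class II genes and 22 partners were higher, 3084 genes in all were higher and 3016 lower, and no class II call changed. *Ctsb*, the gene of cathepsin B, lost its call with the block. Leaving out 1 mouse at a time gave 18 to 23 partners higher, and *Ctsb*, *Ctsd* and *Irf1* lost their calls in 4, 5 and 4 of these 6 fits. Low counts limit *Flt3*, *H2-DMb2* and *Ciita*, each at most 30 in every control library.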
